A study of Mus musculus with 9 samples.

Results

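Sirtuins remove acyl groups from proteins and use up NAD as they do so, so the genes that encode them were examined together with 3 genes that supply NAD in BV-2 cells, an immortalised mouse microglial line, treated with lipopolysaccharide (LPS) and β-hydroxybutyrate (BHB). The members were chosen by gene symbol: Sirt1 to Sirt7, Nampt, Nmnat1 and Nadk. Of these 10 members, 9 were measured, among 12413 gene symbols in the count table, and all 9 passed the filter on low counts that left 10413 genes for testing. Sirt1 was not analysed here, so that the sirtuins below are 6 of the 7. By the labels the cells had received PBS (Control), LPS (Medium) or LPS together with BHB (BHB), with 3 libraries in each group. The study describes its LPS-stimulated cells as given either PBS or BHB, and the methods of the study give 1 µg/mL for LPS and 1.5 mM for BHB. No group received BHB without LPS. How long the sequenced cells were exposed is not stated. The study describes its replicates in general as independent and biological, while the labels do not say whether the 3 libraries of a group came from separate cultures, and a p-value measures the spread among those libraries. The question was whether Sirt3 was alone among the sirtuins in rising with BHB.

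Sirtuins are sorted by compartment: SIRT3, SIRT4 and SIRT5 reside in mitochondria, SIRT6 and SIRT7 in the nucleus, and SIRT2 mostly in the cytosol. Every catalytic cycle splits NAD into nicotinamide and an acylated ADP-ribose, and NAMPT and the NMNAT enzymes rebuild NAD from that nicotinamide. NADK then phosphorylates part of the NAD to NADP. Microglia, the resident macrophages of the central nervous system, shift between oxidative and glycolytic metabolism when LPS engages their Toll-like receptor, and BHB is a ketone body whose oxidation in mitochondria reduces NAD to NADH.

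Totals per library ranged from 23411672 to 32767278 counts, with a median of 27905139. Levels are CPM, the count of a gene relative to the total of its library after scaling by the trimmed mean of M-values (TMM), and a gene is said to have risen or fallen when edgeR's quasi-likelihood test gave a Benjamini-Hochberg adjusted p under 0.05 over all tested genes. Most genes passed that test in every comparison, so a count of members is set beside the share of all genes called. As a check of the cell label, 12 of 14 microglia and macrophage markers were in the table, and their summed level was 3598 to 3745 CPM by library size in Control libraries, 2219 to 2642 in Medium libraries and 3128 to 3296 in BHB libraries. Csf1r, the receptor that microglia need for survival, was at 245 to 252 CPM without LPS, 37.3 to 43.2 with LPS and 242 to 271 once BHB was added. Tmem119 and Aif1, the latter encoding Iba1, stayed at or below 2.37 CPM and 2.04 CPM in every library, and P2ry12 did not exceed 1.08 CPM. The analysed markers of astrocytes (2 of 6), neurons (3 of 7) and endothelial cells or fibroblasts (3 of 7) each summed to no more than 0.807 CPM in any library, and those of oligodendrocytes (4 of 6) to 4.78 to 9.01 CPM. None of the 6 lymphocyte markers was analysed here. The microglial sum was lowest with LPS and higher again with BHB, and its part in the results below was not tested.

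The start regions of 3 sirtuins that moved with BHB, Sirt3 upward and Sirt2 and Sirt4 downward, are shown because they are the sequence upstream of the transcripts compared below, and because those of Sirt3 and Sirt2 are shared with a neighbouring gene. Each window runs from 250 bases before to 50 after a RefSeq transcript start on GRCm38.p6, is 300 bases long and is printed 5′ to 3′ on the strand of the sirtuin. Capitals mark matches, on either strand, to the letters GGGCGG, called a GC box, to those of the CCAAT box, to the hypoxia response core with the letters ACGTG, and to TGACNNNGC, the antioxidant response core. A match on the other strand appears as the reverse complement of these letters. The CACGTG E-box, which contains ACGTG, and the estrogen-related receptor element TCAAGGTCA, which contains AAGGTCA, were searched as well. RefSeq lists a pair of starts for Sirt3.
Sirt3, chr7:140882260-140882559, minus strand: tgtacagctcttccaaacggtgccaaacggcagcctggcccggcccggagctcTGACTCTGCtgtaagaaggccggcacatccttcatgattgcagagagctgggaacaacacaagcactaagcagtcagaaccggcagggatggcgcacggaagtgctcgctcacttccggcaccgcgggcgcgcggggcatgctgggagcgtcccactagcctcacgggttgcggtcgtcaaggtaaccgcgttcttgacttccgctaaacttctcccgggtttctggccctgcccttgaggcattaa
Sirt3 second start, chr7:140881820-140882119, minus strand: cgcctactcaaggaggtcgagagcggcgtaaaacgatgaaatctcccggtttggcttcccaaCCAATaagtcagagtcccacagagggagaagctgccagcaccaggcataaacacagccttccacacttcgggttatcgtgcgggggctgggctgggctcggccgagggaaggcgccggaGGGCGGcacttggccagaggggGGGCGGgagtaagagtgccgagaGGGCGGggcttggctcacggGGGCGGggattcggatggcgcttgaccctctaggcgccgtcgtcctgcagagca
Sirt2, chr7:28766502-28766801, plus strand: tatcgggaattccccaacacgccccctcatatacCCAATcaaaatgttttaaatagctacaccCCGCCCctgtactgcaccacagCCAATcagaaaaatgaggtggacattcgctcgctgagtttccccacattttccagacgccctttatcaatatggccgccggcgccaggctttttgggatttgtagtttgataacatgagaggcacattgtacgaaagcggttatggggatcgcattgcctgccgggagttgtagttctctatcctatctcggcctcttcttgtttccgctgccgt
Sirt4, chr5:115484248-115484547, minus strand: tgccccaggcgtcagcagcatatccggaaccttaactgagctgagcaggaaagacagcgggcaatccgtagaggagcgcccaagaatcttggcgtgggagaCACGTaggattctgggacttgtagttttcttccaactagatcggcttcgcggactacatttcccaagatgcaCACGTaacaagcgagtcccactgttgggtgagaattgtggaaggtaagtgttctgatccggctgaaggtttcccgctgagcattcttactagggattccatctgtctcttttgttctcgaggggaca
In the first Sirt3 window the only match was TGACTCTGC, beginning at position -197 from the start, and 12.4% of 32851 RefSeq windows of this length held TGACNNNGC. The second Sirt3 window held 4 GC boxes, at -69, -47, -24 and -4, and a CCAAT box at -188, motifs present in 35.7% and 37.4% of all windows. In the Sirt2 window there were CCAAT boxes at -216 and -165 and a GC box on the other strand at -187, while the Sirt4 window held ACGTG on the other strand at -149 and -77, a sequence found in 19.6% of windows. TCAAGGTCA, present in 0.423% of windows, was in none of the 4, nor was AAGGTCA (4.72%) or CACGTG (7.15%). The 4 windows had GC contents of 61%, 64.7%, 50% and 52% in the order printed. These matches describe letters in the window and say nothing of binding.

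Sirt3 (ENSMUSG00000025486.17, chr7:140863666-140882309, minus strand, GRCm38) encodes the main deacetylase of the mitochondrial matrix. Its level was 14.5, 16.9 and 14.4 CPM in the 3 Control libraries, 12.4, 11.4 and 14 CPM in Medium and 44.4, 45.1 and 37.4 CPM in BHB. All BHB libraries therefore lay above all others, and every Medium library lay below every Control library, the nearest pair being 14 and 14.4 CPM. The mean of 42.3 ± 4.23 CPM (SD, n = 3) in BHB was 3.35-fold that of Medium (log2 fold change 1.74, SE 0.107, adjusted p = 4.8e-09) and 2.77-fold that of Control (log2 fold change 1.47, SE 0.105, adjusted p = 2.15e-08). Of the 10413 genes tested, 345 (3.31%) had a larger log2 fold change than Sirt3 in BHB against Medium, and 411 (3.95%) in BHB against Control. The decrease with LPS was small: Sirt3 was 1.21-fold lower in Medium than in Control (log2 fold change -0.28, SE 0.11, adjusted p = 0.0349). That call was lost when Control replicate 2 (adjusted p = 0.176), Medium replicate 1 (0.0784) or Medium replicate 2 (0.129) was left out, and with limma-voom (0.0629). The adjusted p over all alternatives to it ranged from 0.00149 to 0.176.

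**Figure D1:**
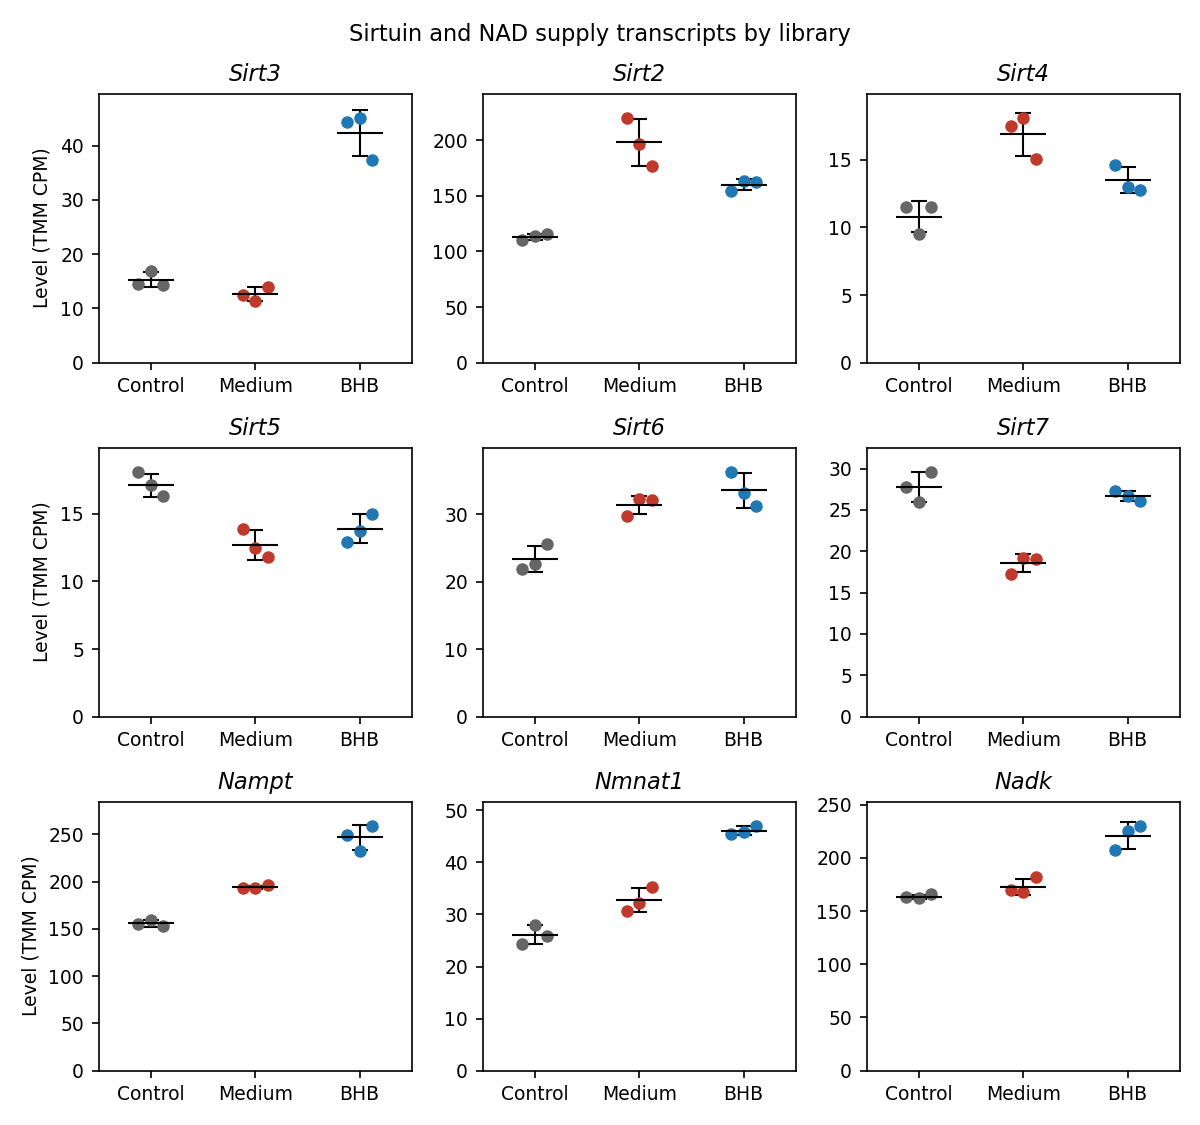
Level of each of the 9 analysed genes in CPM (TMM-scaled, linear axis from 0) in the 3 Control, 3 Medium (LPS) and 3 BHB (LPS with BHB) libraries; points are libraries, and the bar and whiskers give the mean ± SD. For Sirt3 the BHB libraries sit at 37.4 to 45.1 CPM, apart from the other 6 libraries at 11.4 to 16.9 CPM, while Nampt and Nmnat1 step up from Control to Medium to BHB.

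Sirt3 was not the only sirtuin to rise with BHB, but it was the only one of the 6 to reach 2-fold. In BHB against Medium, 4 of the 6 sirtuins were called, beside 66.9% of all genes: Sirt3 and Sirt7 rose, Sirt2 and Sirt4 fell, and Sirt5 and Sirt6 did not pass the test. With the 3 NAD supply genes the count was 7 of 9 members, 5 higher and 2 lower, which is near the share of all genes. The rise with BHB was called for 33.2% and the decrease for 33.6% of all genes. A 2-fold rule was also applied: a change of 2-fold or more with edgeR's p under 0.05 before adjustment. Under it 1 of the 9 members was called, Sirt3, beside 12.9% of all genes. The study used the same cut-offs with DESeq2 and does not say whether its p was adjusted, so its calls can differ. In Medium against Control 8 of 9 members were called beside 72.6% of all genes, 5 higher and 3 lower beside 36.3% in each direction, and in BHB against Control 8 of 9 beside 66.7%, 7 higher and 1 lower beside 33.4% and 33.3%. The 2-fold rule called none of the 9 members with LPS, beside 18.8% of all genes, and Sirt3 alone in BHB against Control, beside 13.4%. The libraries of the groups did not overlap for 7 of 9 members in BHB against Medium, beside 68% of all genes, for 9 of 9 in Medium against Control, beside 75.1%, and for 8 of 9 in BHB against Control, beside 75.3%. The Medium libraries enter both of the first comparisons, and the Control and BHB libraries enter the third as well, so the fold changes are not independent of each other.

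**Figure D2:**
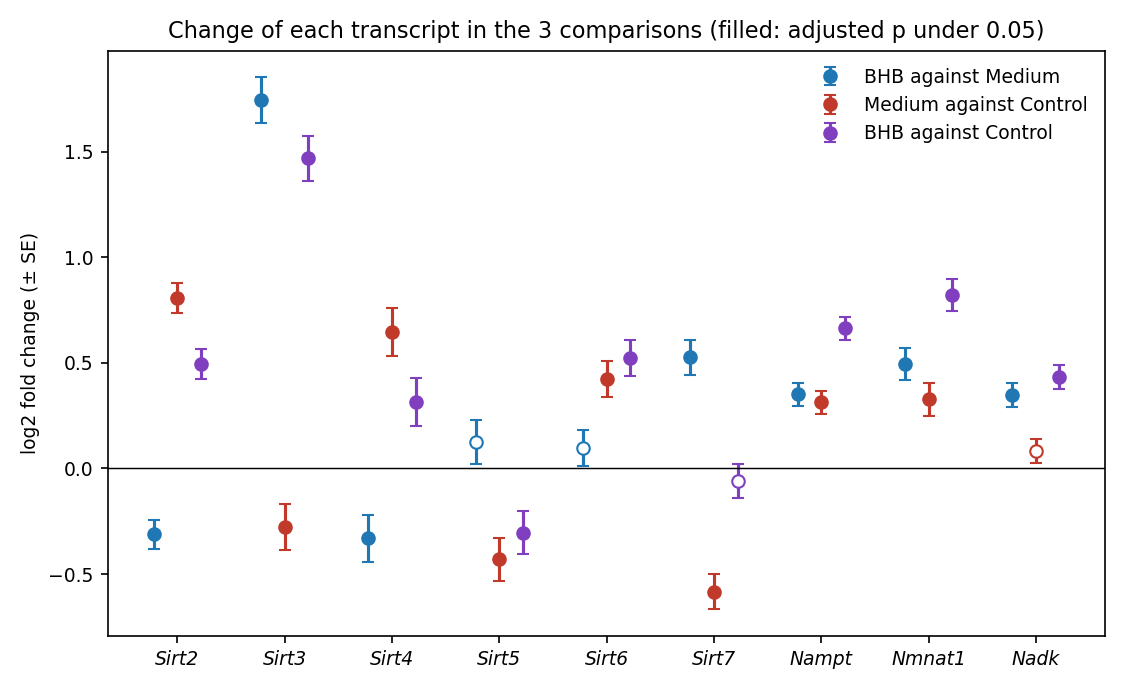
Log2 fold change of each analysed member in the 3 comparisons, with bars of 1 SE from edgeR; filled points have an adjusted p under 0.05. Sirt3 stands at 1.74 in BHB against Medium, while the other 8 members lie between -0.33 and 0.53.

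Sirt7 (chr11:120618372-120625240, minus strand) encodes a nucleolar deacetylase linked to ribosomal RNA transcription. It was at 27.8, 26 and 29.6 CPM in Control, 17.3, 19.2 and 19.1 CPM in Medium and 27.3, 26.7 and 26.1 CPM in BHB. The Medium libraries were all below the rest, and the BHB libraries fell within the Control range. LPS lowered Sirt7 by 1.5-fold (log2 fold change -0.58, SE 0.0823, adjusted p = 1.61e-05), and it was 1.44-fold higher with BHB than with LPS alone (log2 fold change 0.53, SE 0.0824, adjusted p = 5.78e-05). BHB and Control did not differ by the test (log2 fold change -0.06, SE 0.0804, adjusted p = 0.544). Sirt7 and Sirt3 thus moved in the same directions in both steps, but Sirt7 ended at the Control level and Sirt3 above it. With BHB, 1948 genes (18.7% of those tested) had a larger log2 fold change than Sirt7.

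Sirt2 (chr7:28766735-28788661, plus strand), whose protein deacetylates tubulin and other cytosolic proteins, moved the other way. Its values were 110, 114 and 116 CPM in Control, 220, 197 and 177 CPM in Medium and 154, 163 and 162 CPM in BHB. The 3 groups did not overlap, with Medium highest and BHB in between. LPS raised Sirt2 1.75-fold (log2 fold change 0.81, SE 0.0702, adjusted p = 1.08e-07), and BHB libraries were 1.24-fold below Medium (log2 fold change -0.31, SE 0.0694, adjusted p = 0.00113) but still 1.41-fold above Control (adjusted p = 2.27e-05).

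Sirt4 (chr5:115478010-115484725, minus strand) encodes a mitochondrial sirtuin with ADP-ribosyltransferase and lipoamidase activity. It was measured at 11.5, 9.53 and 11.5 CPM in Control, 17.5, 18.1 and 15.1 CPM in Medium and 14.6, 13 and 12.8 CPM in BHB. As for Sirt2, the groups did not overlap and Medium was highest. The rise with LPS was 1.56-fold (log2 fold change 0.64, SE 0.114, adjusted p = 0.000139) and the decrease with BHB 1.26-fold (log2 fold change -0.33, SE 0.112, adjusted p = 0.0178). The decrease was no longer called without Medium replicate 1 (adjusted p = 0.0533), Medium replicate 2 (0.0666), BHB replicate 2 (0.0603) or BHB replicate 3 (0.0592), or with scaling by library size alone (log2 fold change -0.20, adjusted p = 0.137). The remaining difference from Control, 1.24-fold (adjusted p = 0.0258), was lost without Control replicate 2 (0.121), without BHB replicate 1 (0.0975) and with library sizes alone (log2 fold change 0.17, adjusted p = 0.197).

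Sirt5 and Sirt6 moved with LPS and showed no called change with BHB. Sirt5 (chr13:43365496-43395203, plus strand), the mitochondrial desuccinylase, was at 18.1, 17.1 and 16.3 CPM in Control, 13.9, 12.5 and 11.8 CPM in Medium and 12.9, 13.7 and 15 CPM in BHB. Control lay above both other groups, which overlapped. The decrease with LPS was 1.35-fold (log2 fold change -0.43, SE 0.103, adjusted p = 0.00165), and BHB against Medium gave a log2 fold change of 0.13 (SE 0.104, adjusted p = 0.297). With library sizes alone, under which the all-gene median of the log2 fold change was 0.132, Sirt5 was called higher with BHB (0.26, adjusted p = 0.0364). Sirt5 was also 1.24-fold lower in BHB than in Control (adjusted p = 0.0161), a call lost without Control replicate 1 (0.0678) or BHB replicate 1 (0.069).

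Sirt6 (chr10:81621785-81627797, minus strand), a chromatin deacetylase that acts on histone H3, was at 21.9, 22.7 and 25.6 CPM in Control, 29.8, 32.3 and 32.2 CPM in Medium and 36.3, 33.2 and 31.2 CPM in BHB. Both LPS-treated groups lay above Control and overlapped each other. LPS raised Sirt6 1.34-fold (log2 fold change 0.43, SE 0.0858, adjusted p = 0.000433), a call lost with library sizes alone (adjusted p = 0.157), under which the all-gene median of the log2 fold change was -0.273. BHB against Medium gave a log2 fold change of 0.10 (SE 0.0844, adjusted p = 0.33), and BHB was 1.43-fold above Control (adjusted p = 8.55e-05).

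To ask whether Sirt3 moved apart from each other sirtuin, its count was divided by theirs within each library, which removes any scaling between libraries. The ratio of Sirt3 to Sirt7 counts was 0.717, 0.594 and 0.734 with LPS alone and 1.63, 1.69 and 1.43 with BHB added, a 2.33-fold difference although both genes rose. Sirt3 to Sirt2 went from 0.0564, 0.0579 and 0.079 to 0.288, 0.277 and 0.23, a 4.14-fold difference. For Sirt4, Sirt5 and Sirt6 as denominators the differences were 4.21-fold, 3.07-fold and 3.14-fold. In all 5 ratios the 3 BHB values all exceeded the 3 Medium values, and the 2-sided exact permutation test gave p = 0.1 for each, adjusted p = 0.1 over the 5, which is the smallest value that 3 libraries against 3 can give, so this design cannot reach 0.05. In Medium against Control the ratios to Sirt2, Sirt4 and Sirt6 were 2.11-fold, 1.89-fold and 1.63-fold lower without overlap (exact permutation p = 0.1, adjusted p = 0.167 for each). Those to Sirt5 and Sirt7 overlapped between the groups, with log2 differences of 0.16 (exact permutation p = 0.4) and 0.31 (exact permutation p = 0.2). With BHB none of the 5 ratios overlapped between the groups, and with LPS 3 of the 5 did not.

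**Figure D3:**
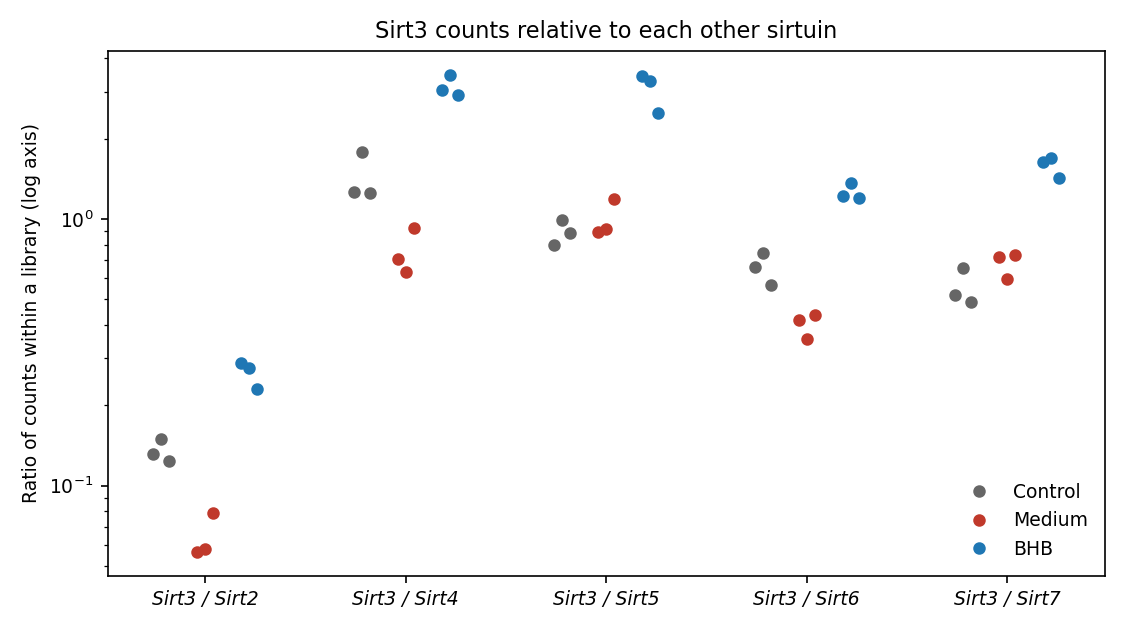
Ratio of Sirt3 counts to those of each other analysed sirtuin within a library, on a log axis, for the 3 libraries of Control, Medium and BHB. The BHB points are above the Medium points for all 5 denominators, as for Sirt7, where they lie at 1.43 to 1.69 against 0.594 to 0.734.

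Levels of different genes were compared per kilobase of annotated exon, and the order below depends on that length. In CPM without it, Sirt4 (10.8) lay below Sirt3 (15.3) in Control, while Sirt3 (12.6) and Sirt5 (12.7) were the lowest in Medium. Among the 6 sirtuins Sirt2 was highest in every group, at 22.5, 39.4 and 31.7 CPM per kb in Control, Medium and BHB. Sirt3 shared the last place with Sirt5 in Control (2.56 and 2.81 CPM per kb) and again in Medium (2.11 and 2.08), where the ranges of the pair overlapped. With BHB, Sirt3 stood at 7.08 CPM per kb, above Sirt4 (5.61), Sirt7 (5.18) and Sirt5 (2.28) without overlap and below Sirt6 (12.1). Its share of the summed sirtuin level was 5.54 ± 0.623% in Control, 3.24 ± 0.52% in Medium and 11.1 ± 0.922% in BHB (SD, n = 3), while the sum itself was 46.2 ± 1.48, 65.5 ± 4.25 and 63.9 ± 1.13 CPM per kb. Sirt2 made up 48.8%, 60% and 49.6% of it. Nadk and Nampt exceeded all sirtuins in Control and BHB, at 43.6 and 30.9 CPM per kb in the former and 58.9 and 48.9 in the latter, but with LPS alone the ranges of Nampt (38.3) and Sirt2 overlapped. Nmnat1 and Sirt6 overlapped in the Control libraries (8.59 and 8.4) and the Medium libraries (10.8 and 11.3), and Nmnat1 was the higher with BHB, at 15.2 CPM per kb.

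All 3 NAD supply genes rose with BHB, beside 33.2% of all genes. Nampt (chr12:32819545-32853349, plus strand), the rate-limiting enzyme that joins nicotinamide to phosphoribose, was at 155, 160 and 153 CPM in Control, 193, 193 and 196 CPM in Medium and 249, 233 and 259 CPM in BHB. Its groups formed 3 separate steps. The first step, with LPS, was 1.24-fold (log2 fold change 0.31, SE 0.0538, adjusted p = 0.000106) and the second, with BHB, 1.28-fold (log2 fold change 0.35, SE 0.0535, adjusted p = 4.49e-05), so that BHB was 1.58-fold above Control (adjusted p = 7.97e-08). Nmnat1 (chr4:149467572-149485202, minus strand), which makes NAD from nicotinamide mononucleotide in the nucleus, was at 24.4, 28 and 25.9 CPM in Control, 30.7, 32.3 and 35.3 CPM in Medium and 45.4, 45.9 and 47 CPM in BHB. It showed the same 3 steps, by 1.25-fold with LPS (log2 fold change 0.33, SE 0.0769, adjusted p = 0.00147) and 1.41-fold with BHB (log2 fold change 0.49, SE 0.0752, adjusted p = 4.54e-05), reaching 1.77-fold over Control (adjusted p = 3.14e-07). The LPS steps of Nampt and Nmnat1 were not called with library sizes alone (log2 fold changes 0.05 and 0.06, adjusted p = 0.478 and 0.544).

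Nadk (chr4:155562378-155591001, plus strand), the cytosolic kinase that turns NAD into NADP, was at 163, 162 and 166 CPM in Control, 170, 168 and 182 CPM in Medium and 207, 225 and 230 CPM in BHB. The groups did not overlap, but the step from Control to Medium was small and not called (log2 fold change 0.08, SE 0.0567, adjusted p = 0.194), and with library sizes alone it was reversed (-0.18, adjusted p = 0.0214). BHB raised Nadk 1.27-fold over Medium (log2 fold change 0.35, SE 0.0565, adjusted p = 7.94e-05) and 1.35-fold over Control (adjusted p = 1e-05). Nadk2, which encodes the mitochondrial NAD kinase, fell 1.39-fold with LPS (log2 fold change -0.48, SE 0.0998, adjusted p = 0.0006) and was 2.18-fold higher with BHB (log2 fold change 1.12, SE 0.0991, adjusted p = 2.02e-07). Its mean levels were 45.6, 32.9 and 71.5 CPM in Control, Medium and BHB. Both kinases thus rose with BHB, beside 33.2% of all genes, and Nnt, the transhydrogenase of the same list, was not analysed here.

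The remaining genes of NAD metabolism were read from lists of known pathway members. Of the salvage and nicotinic acid route, 6 of 11 genes were tested. With BHB 3 rose, none fell and 3 were not called, beside 33.2% of all genes that rose and 33.6% that fell, and the median log2 fold change was 0.28 beside 0.0037 for all genes. Besides Nampt and Nmnat1 the third was Nadsyn1, the glutamine-dependent NAD synthase (log2 fold change 0.42, adjusted p = 0.0118). With LPS 4 rose and none fell, beside 36.3% of all genes in each direction (median 0.32, all genes -0.005), among them Pnp, the nucleoside phosphorylase that frees nicotinamide from its riboside (log2 fold change 0.92, adjusted p = 3.91e-07), and Nmrk1, the riboside kinase (0.67, adjusted p = 0.000534). Neither Pnp (-0.10, adjusted p = 0.308) nor Nmrk1 (0.20, adjusted p = 0.189) passed the test with BHB.

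The list for the route from tryptophan to NAD and its side branches held 12 genes. Of these, 5 were tested, and 3 of them, Afmid, Haao and Ido2, fell with LPS and rose with BHB. In all, 4 fell and none rose with LPS (median log2 fold change -0.79), where 36.3% of all genes fell, and 3 rose and none fell with BHB (median 1.15), where 33.2% of all genes rose. Kyat3 and Kyat1 encode aminotransferases that draw kynurenine into a side branch. Kyat3 fell with LPS (-0.66, adjusted p = 0.0044) and was not called with BHB (-0.12, adjusted p = 0.582). Kyat1 was called in neither step. Afmid, the formamidase of the kynurenine route, averaged 10.4, 4.95 and 11 CPM in Control, Medium and BHB (log2 fold change -1.07, adjusted p = 0.00116 with LPS, and 1.15, adjusted p = 0.000785 with BHB). Its Medium libraries were uneven, at 3.57, 3.61 and 7.67 CPM. Haao, which forms the precursor of quinolinate, averaged 5.86, 3.37 and 8.75 CPM (-0.79, adjusted p = 0.00199, and 1.36, adjusted p = 1.8e-05). Ido2, a tryptophan dioxygenase, rests on few counts: 27, 15 and 22 in the Control libraries, 4, 0 and 0 with LPS alone and 15, 9 and 10 with BHB added. The ratio of its pooled CPM in BHB to that in Medium was 7.72, with a 95% counting interval of 2.75 to 30 that leaves out the spread between libraries. The entry genes Ido1 and Tdo2 did not pass the filter on low counts, nor did Kmo and Qprt. Qprt had 3 counts in BHB replicate 3 and 0 in every other library. Kynu was not analysed here, so the route to NAD was measured only in part.

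Among enzymes other than sirtuins that consume NAD, 16 of 17 genes were tested, and 6 rose and 7 fell with BHB (median log2 fold change 0.04), against 9 and 5 with LPS (median 0.39). Over all genes 33.2% rose and 33.6% fell with BHB, and 36.3% did so in each direction with LPS. Cd38, the ectoenzyme that degrades NAD and makes cyclic ADP-ribose, averaged 47.1 CPM without LPS, 8.83 with LPS and 36.8 with LPS and BHB. It fell 5.35-fold with LPS (log2 fold change -2.42, adjusted p = 8.96e-11) and was 4.18-fold higher with BHB (2.06, adjusted p = 1.11e-09). Its relative Bst1, named after its values were seen, moved likewise (-0.87, adjusted p = 0.00052, and 1.69, adjusted p = 1.04e-06). Parp14, a mono-ADP-ribosyltransferase of the interferon response, went the other way, from 50.7 CPM to 144 with LPS and 42.2 with BHB (2.84-fold higher, adjusted p = 2.94e-09, and 3.4-fold lower, adjusted p = 1.31e-09). Parp10 rose with LPS (1.71, adjusted p = 2.21e-11) and was lower with BHB (-0.83, adjusted p = 5.5e-08). Parp16, which sits in the endoplasmic reticulum membrane, rose in both steps, from 11.8 to 17.3 and 52.3 CPM (0.54, adjusted p = 0.000906, and 1.60, adjusted p = 2.15e-08).

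**Figure D4:**
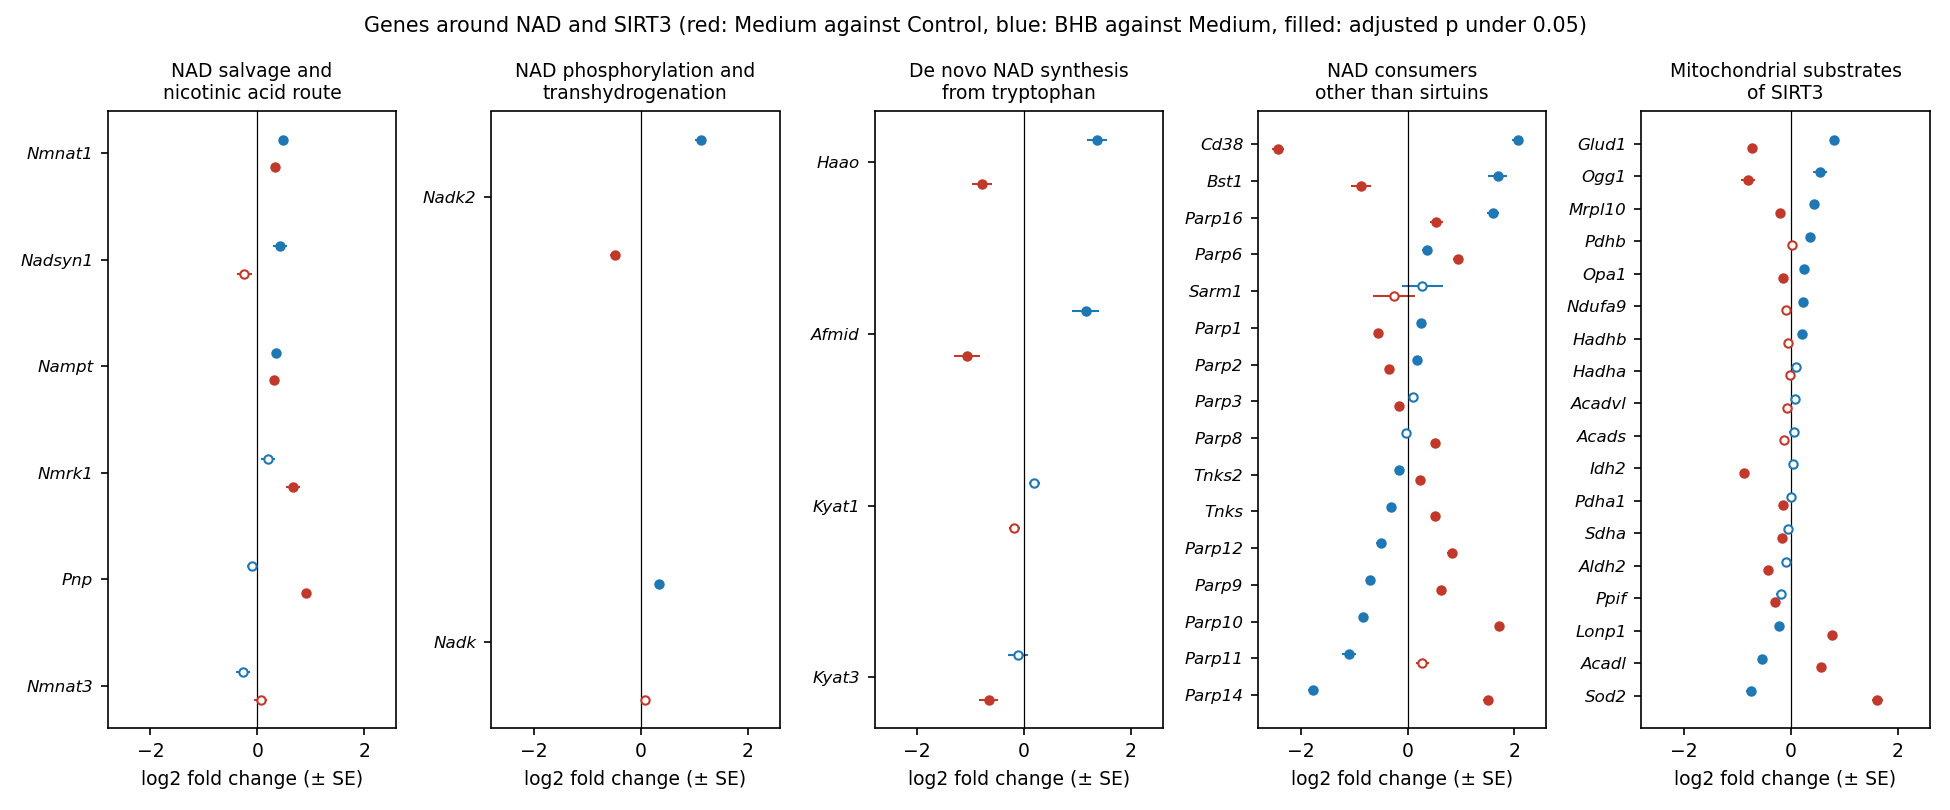
Log2 fold changes with bars of 1 SE from edgeR for the tested genes of 5 lists (salvage, phosphorylation, synthesis from tryptophan, other consumers of NAD, and SIRT3 substrates), in red for Medium against Control and in blue for BHB against Medium, filled where the adjusted p was under 0.05; Ido2 is left out because of its few counts. Cd38 lies at -2.42 and 2.06, on opposite sides of 0, and Parp14 shows the reverse order.

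Genes that carry reducing equivalents of NADH between compartments, or that oxidise NADH in the cytosol, were tested for 11 of 12: 6 rose and 1 fell with BHB (median log2 fold change 0.33), and 3 rose and 5 fell with LPS (median -0.21). Of all genes, 33.2% rose and 33.6% fell with BHB, and 36.3% went in each direction with LPS. Ldha, which regenerates NAD by reducing pyruvate to lactate, averaged 1481, 1056 and 2690 CPM in Control, Medium and BHB (2.55-fold higher with BHB, log2 fold change 1.35, adjusted p = 9.32e-10). Slc25a13, an aspartate-glutamate carrier of the malate-aspartate shuttle, averaged 69.9, 35.9 and 74.9 CPM (1.06 with BHB, adjusted p = 1.68e-09), and Slc25a11, the oxoglutarate carrier, rose by 0.90 (adjusted p = 5.61e-09). Gpd1l fell with LPS (-0.81, adjusted p = 6.05e-08) and was not called with BHB (-0.12, adjusted p = 0.149). Of the nicotinamide and NAD disposal list 5 of 6 were tested, with 1 called higher and 2 lower with BHB, beside 66.9% of all genes called in either direction. Naxe, the NADHX epimerase, fell (-0.45, adjusted p = 7.19e-05), as did the NADH pyrophosphatase Nudt13 (-0.44, adjusted p = 0.000973). Aox1, the third call, rose by 2.24 (adjusted p = 0.000303) on counts of 5, 7 and 6 in Medium and 30, 31 and 34 in BHB. Nudt12, another NADH pyrophosphatase, was not called with LPS (-0.24, adjusted p = 0.111) or with BHB (-0.06, adjusted p = 0.714). Slc25a51, the mitochondrial NAD carrier and the only tested gene of the transport list, rose with LPS (0.25, adjusted p = 0.00656) and was not called with BHB (-0.03, adjusted p = 0.754).

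Among the genes of known substrates of the SIRT3 deacetylase there were calls in both directions. Of 22 listed genes 18 were tested, and 7 rose, 3 fell and 8 were not called with BHB (median log2 fold change 0.07), against 3, 9 and 6 with LPS (median -0.14). The share of all genes called in either direction was 66.9% with BHB and 72.6% with LPS, which these counts do not exceed. Glud1, glutamate dehydrogenase, averaged 182, 110 and 193 CPM in Control, Medium and BHB (0.81 with BHB, adjusted p = 5.18e-09). Sod2, the mitochondrial superoxide dismutase, averaged 51.6, 159 and 94.4 CPM, a decrease with BHB (-0.75, adjusted p = 7.1e-06) after a rise with LPS (1.62, adjusted p = 1.94e-09). Acadl, the long-chain acyl-CoA dehydrogenase, likewise rose with LPS (0.57, adjusted p = 2.14e-06) and was lower with BHB (-0.55, adjusted p = 4.67e-06). Lonp1, the matrix protease, rose with LPS (0.77, adjusted p = 7.02e-09) and fell slightly with BHB (-0.23, adjusted p = 0.00121). Acetylation, by which SIRT3 acts on these proteins, was not measured. Of the binding regulators of SIRT1, Rps19bp1 (AROS) rose with LPS (0.67, adjusted p = 1.17e-05) and was lower with BHB (-0.40, adjusted p = 0.00114). Usp22 rose in both steps (0.35, adjusted p = 0.00102, and 0.19, adjusted p = 0.0467). Its Medium libraries were at 224, 227 and 176 CPM and its BHB libraries at 234, 236 and 243 CPM. Ccar2 fell with LPS (-0.36, adjusted p = 0.000119) and was not called with BHB (0.14, adjusted p = 0.0639).

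Several members share annotated sequence with a neighbour, and whether reads were assigned by strand when they were counted is not known from the sources. Sirt3 overlaps Ric8a by 707 bp at its 3′ side, of which 418 bp are exonic in both and make up 7% of the Sirt3 exon length, and Psmd13 by 342 bp at its 5′ side (5.73%), both on the opposite strand. The 2 RefSeq starts of Sirt3 lie 85 bp and 525 bp from that of Psmd13, a proteasome subunit gene. Psmd13 averaged 58.2, 67.3 and 101 CPM in Control, Medium and BHB and rose 1.51-fold with BHB (log2 fold change 0.59, SE 0.0705, adjusted p = 4.08e-06). Ric8a, which encodes a chaperone of G protein α subunits, averaged 51.8, 36.4 and 60.9 CPM and rose 1.67-fold (0.74, SE 0.0937, adjusted p = 7.33e-06). With LPS Psmd13 rose by 0.21 (adjusted p = 0.0163) and Ric8a fell by 0.51 on the log2 scale (adjusted p = 0.000205). The log2 fold changes of both neighbours with BHB were smaller than the 1.74 of Sirt3, a difference that was not tested. In CPM, Sirt3 averaged 12.6 in Medium and 42.3 in BHB, below both neighbours in each of these groups. The part of shared reads in the Sirt3 count was not tested.

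The RefSeq start of Sirt2 lies 108 bp from that of Nfkbib, an NF-κB inhibitor transcribed from the opposite strand. In the GENCODE annotation the starts of the pair lie 777 bp apart, and their exons share 42 bp (0.834% of those of Sirt2). Nfkbib averaged 23.3, 63.4 and 64.9 CPM, so it rose 2.72-fold with LPS (log2 fold change 1.44, adjusted p = 2.62e-09), in the same direction as Sirt2, and was not called with BHB (0.03, adjusted p = 0.738). Sirt7 shares 124 bp of exon (2.41%) with Mafg on the same strand, a small Maf transcription factor gene that was lower with BHB (-0.46, adjusted p = 1.17e-05), opposite to Sirt7, and was not called with LPS (-0.04, adjusted p = 0.577). The start window of Sirt7 runs through that Mafg exon and is not printed, while both printed Sirt3 windows also cover exon bases of Psmd13. Lzic, whose GENCODE start lies 27 bp from that of Nmnat1, was not called in either step (-0.09, adjusted p = 0.422, and 0.14, adjusted p = 0.229). Ankrd24, starting 743 bp from Sirt6 by GENCODE, rose with LPS (0.27, adjusted p = 0.0317) and was lower with BHB (-0.81, adjusted p = 9.56e-06). Sirt4, Sirt5 and Nadk overlap no annotated gene, and the genes that overlap Nampt (Gdap10) and Nmnat1 (Tmem274) share no exon with them and were not analysed here.

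**Figure D5:**
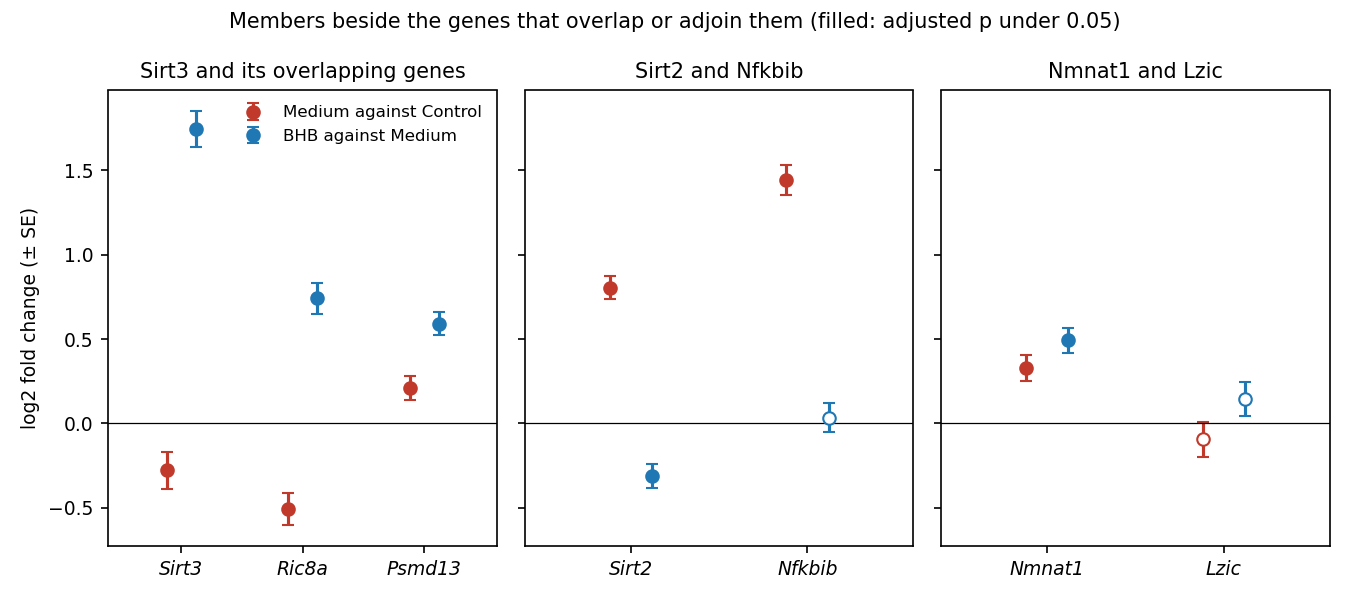
Log2 fold changes of Sirt3, Sirt2 and Nmnat1, each beside the genes that overlap it or start next to it, with bars of 1 SE from edgeR, in red for Medium against Control and in blue for BHB against Medium, filled where the adjusted p was under 0.05. Psmd13 (0.59) and Ric8a (0.74) rose with BHB by less than Sirt3 (1.74), and with LPS Nfkbib (1.44) and Sirt2 (0.81) are both above 0.

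The genes whose pattern was most like that of Sirt3 were found by the Euclidean distance between mean-centred log2 CPM over the 9 libraries, a measure on which 0 means the same profile. The 5 nearest of 10412 genes were Tnfrsf9 (0.346), a costimulatory receptor, Me1 (0.432), the cytosolic malic enzyme that makes NADPH, Gys1 (0.496), glycogen synthase, Gpx1 (0.514), glutathione peroxidase, and Capn2 (0.519), a calpain protease. Their increases from Medium to BHB were 3.38-fold, 3.45-fold, 3.9-fold, 2.93-fold and 2.63-fold, in that order. Of the members Nmnat1 came nearest, at a distance of 1.56 (504th of 10412), ahead of Nampt (937th), Nadk (1110th), Sirt7 (1931st) and Sirt6 (2193rd). Sirt5, Sirt2 and Sirt4 ranked 4737th, 5393rd and 5753rd. By Pearson correlation with Sirt3 the order differed: Nadk (0.903) led, before Nmnat1 (0.839), Nampt (0.781) and Sirt7 (0.523), the highest of the other sirtuins. By either measure the NAD supply genes were closer to Sirt3 than any other analysed sirtuin, as a description of these 9 libraries. Nampt and Nmnat1 nevertheless rose with LPS, where Sirt3 fell, though none of these calls held in every alternative.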

How the data were processed

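Counts per gene from RNA sequencing of BV-2 cells were analysed in 3 libraries each of Control, Medium and BHB, grouped by the submitters' labels. The authors deposited whole-number counts for 12413 gene symbols, neither normalized nor pooled. Per the methods of the study, reads trimmed with Skewer and inspected with FastQC (v0.11.2) were aligned by STAR (v2.7.10a, strand-specific) with GENCODE M21 annotation and passed to StringTie (v2.1.4) for assembly. The submitters' processing notes instead list Trimmomatic and HISAT2, with FastQC at 0.11.5, GRCm38 and StringTie. How counts were made is not stated in the sources used here.

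Genes were kept by filterByExpr, scaled by TMM and tested in 1 fit of all 9 libraries with edgeR 4.0.16 (glmQLFit, glmQLFTest) in R 4.3.3, with Benjamini-Hochberg adjustment over 10413 genes and a threshold of 0.05. Each standard error was derived from the log2 fold change and the F statistic. Ratios of Sirt3 to the 5 other analysed sirtuins, with 0.5 added to both counts, were tested by exact permutation in SciPy 1.17.1. A 6th ratio was planned for Sirt1, which was not analysed here. Levels per kb used the union of GENCODE M21 exons, whose gene positions are given on GRCm38 and matched 99.2% of symbols. Start windows and motifs were read from RefSeq (GRCm38.p6). The log2 CPM used for likeness had a prior count of 2. The named genes are the members, up to 3 genes per list with the smallest p in each of BHB against Medium and Medium against Control, annotated neighbours overlapping a member or starting within 1 kb of it, and the 5 genes most like Sirt3. Alternatives were DESeq2 1.42.0, limma-voom (limma 3.58.1), scaling by library sizes alone or by RLE, omitting the filter, requiring 10 counts in all libraries, fitting only the compared groups, the replicate number as a block, a 2-fold rule, and leaving out each library. Scripts were tested on simulated data. The members and lists were chosen with earlier results of these data known, so no list was tested as a set.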

Additional observations from a re-analysis of the deposited data

How the results depend on the processing

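Sirt3 stayed called in BHB against Medium in all 15 alternatives, at log2 fold changes of 1.68 to 1.87, and in BHB against Control, at 1.33 to 1.55. Under the 2-fold rule 1 member, Sirt3, was called in BHB against Medium and 1 in BHB against Control, hence 1 sirtuin in each, and 0 members and 0 sirtuins in Medium against Control, where the test at an adjusted p under 0.05 called 8 and 6. The sirtuins called in BHB against Control numbered 3 to 5 when 1 library was left out, with 3 without BHB replicate 1. In that fit 6526 of all 10507 genes were called. Sirt3 in Medium against Control was -0.36 to -0.19 without 1 library. It was not called with limma-voom (-0.28, adjusted p = 0.0629) or, at -0.28, by the 2-fold rule. Nadk in the same comparison reversed with library sizes alone (-0.18), a scaling under which the all-gene median of the log2 fold change was -0.273 there, 0.132 in BHB against Medium and -0.14 in BHB against Control. Members called higher and lower were then 6 and 1 in BHB against Medium, 2 and 4 in Medium against Control, and 6 and 1 in BHB against Control. Of all 10413 genes, 6897, 7651 and 6943 were called in either direction under this scaling, in the same order. The 5 ratios of Sirt3 kept their direction in all 8 alternatives in both comparisons.

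Libraries with the same replicate number showed no deviation in common: over the 9 pairs in 3 comparisons the correlation of deviations was -0.071 to 0.0632. Whether the samples were prepared in pairs is not stated by the labels. With the replicate number as a block Sirt3 was at 1.74 in BHB against Medium (edgeR adjusted p = 3.74e-08). The members called were 7, 7 and 8 in BHB against Medium, Medium against Control and BHB against Control. Of all 10413 genes, 6884, 7488 and 6864 were called with the block, in the same order. The only member to lose its call was Sirt3 in Medium against Control (-0.27, edgeR adjusted p = 0.0502).

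The 3 libraries per group limit the exact tests of ratios, and the counts of Sirt3, 272 at the lowest, do not limit its comparison with BHB. Without a group that received BHB alone, an effect of BHB cannot be told apart from one that needs LPS.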
